A study of Mus musculus with 23 samples.

Results

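Transcripts of 6 genes were followed in type 1 conventional dendritic cells (cDC1) from mouse melanomas: those of the S100 proteins S100a4, S100a6, S100a10 and S100a11, of lysozyme M (Lyz2) and of the chemokine receptor Ccr2. They are 6 of the 13572 gene rows of the deposited count table, found by their symbols, and all 6 were present. The genes were chosen by their counts in these same libraries, that is, by earlier results on the difference between the tumour groups and on covariation with markers of type 2 dendritic cells (cDC2) between pools. Their group differences and these correlations are therefore given as a description, without a test. The cDC1 came from tumours of C57BL/6 wild-type mice injected under the skin with BRAFV600E melanoma cells, either control cells or cells in which Ptgs1 and Ptgs2 were knocked out. These 2 genes encode the cyclooxygenases that start prostaglandin synthesis, and the second group is called PGE2-deficient, although the mice themselves kept both genes and no prostaglandin level is part of the data. Tumours were taken on day 6. Live leukocytes (CD45+) that carried MHC-II, CD11c and CD103 and lacked CD11b were sorted in pools of 10 for Smart-seq3, a full-length method for tiny RNA inputs. Each group had 4 mice with at most 3 pools each, 12 control and 11 PGE2-deficient pools in all. The labels call the pools of a mouse technical replicates.

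S100 proteins are small calcium-binding proteins of the EF-hand type that act as dimers, bind partner proteins inside the cell and in part also act outside it. S100a4 binds non-muscle myosin and is linked to cell motility. S100a6 (calcyclin) binds annexins and the calcyclin-binding protein Cacybp. S100a10 is the exception of the family in that it no longer binds calcium, and it forms a complex with annexin A2 at the membrane, while S100a11 binds annexin A1. Lyz2 encodes the bacteriolytic enzyme of monocytes, macrophages and neutrophils. Ccr2 is the receptor through which Ccl2 and related chemokines draw monocytes out of the bone marrow. Dendritic cells of the cDC2 and monocyte-derived kinds are known for higher levels of several of these genes than cDC1.

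In GRCm38, all 4 S100 genes lie on the plus strand of chromosome 3, where 14 of the annotated S100 genes are found. S100a4 (90603771 to 90606045) and S100a6 (90612882 to 90624181) are near neighbours, with 6836 bases and 1 annotated gene, S100a5, between them. S100a11 (93520488 to 93526287) and S100a10 (93555080 to 93564643) lie close to each other but 2896306 bases or more beyond S100a6. Lyz2 lies on the minus strand of chromosome 10 (117277331 to 117282321) and Ccr2 on the plus strand of chromosome 9 (124101950 to 124113557). All 6 are annotated as protein-coding. The annotated gene Gm42674 overlaps S100a4 on the same strand and was not analysed here. Lyz1, the close copy of Lyz2, held 8 counts against 403 for Lyz2, so few reads were assigned to the copy, although reads common to both cannot be traced.

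The RefSeq table of promoters (GRCm38.p6, 250 bases before to 50 after the transcription start) held 5 of the 6 genes, S100a10 not among them. The promoters of S100a4, S100a6 and S100a11 are shown because the first 2 genes varied together in these cells and the last did not. They cover chr3:90603520-90603819, chr3:90612644-90612943 and chr3:93520246-93520545, all on the plus strand and written 5′ to 3′. Capitals mark matches, searched on both strands, to 5 motifs. These were TGANTCA for AP-1, TGACGTCA for the cyclic AMP response element, TTNNGCAA for C/EBP, and GAGGAAGT for PU.1. The last, for the basal transcription machinery at many start sites, was the TATA box, spelled TATAAA here.
S100a4: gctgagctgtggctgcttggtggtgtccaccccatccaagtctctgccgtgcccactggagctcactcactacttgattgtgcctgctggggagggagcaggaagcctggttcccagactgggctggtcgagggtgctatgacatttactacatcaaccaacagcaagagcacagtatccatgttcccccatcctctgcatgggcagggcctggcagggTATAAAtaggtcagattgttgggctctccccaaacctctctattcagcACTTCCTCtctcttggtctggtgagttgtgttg
S100a6: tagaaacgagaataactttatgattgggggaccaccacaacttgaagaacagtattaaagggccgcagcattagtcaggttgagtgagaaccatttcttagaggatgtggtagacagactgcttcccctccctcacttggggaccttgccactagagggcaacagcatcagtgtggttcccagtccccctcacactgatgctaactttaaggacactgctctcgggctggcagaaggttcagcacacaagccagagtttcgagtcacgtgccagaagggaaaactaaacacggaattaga
S100a11: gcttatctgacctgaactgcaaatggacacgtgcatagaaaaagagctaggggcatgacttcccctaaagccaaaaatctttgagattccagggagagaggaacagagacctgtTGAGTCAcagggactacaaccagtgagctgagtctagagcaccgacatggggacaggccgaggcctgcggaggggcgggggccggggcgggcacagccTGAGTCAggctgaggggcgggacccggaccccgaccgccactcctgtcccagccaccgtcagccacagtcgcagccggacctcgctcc

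S100a4 held a TATA box 31 bases before the start, as did 13.6% of the 32851 promoters in the table, and a PU.1 match on the minus strand from 17 bases after the start, as did 3.20% with that motif. S100a11 held 2 AP-1 matches, 136 and 38 bases before the start, a motif found in 7.81% of promoters. The S100a6 window held none of the 5 motifs, and those of Lyz2 and Ccr2 held none either. The cyclic AMP response element (1.79% of promoters) and the C/EBP motif (10.8%) matched in none of the 5 windows. No matches overlapped each other, and a match is only an occurrence of these letters.

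The pools held between 25571 and 98554 counts and 4631 to 8868 detected genes, so single members often rest on a few counts. All 9 markers of cDC1 had counts in both groups, and their summed level was 2820 ± 640 CPM (mean ± SD, n = 4 mice; counts scaled to a common library total) in control and 4950 ± 824 in PGE2-deficient tumours. The 9 macrophage markers with a row in the table held 236 control counts and 31 PGE2-deficient counts (10.0 to 989 against 16.5 to 117 CPM by mouse), with C1qb at 0 in the latter and Apoe at 100 and 7 counts. Pool 2 of control mouse 2 and pool 1 of control mouse 4 held 228 of the 236, and the other 10 control pools held 8. The 7 markers of plasmacytoid dendritic cells (pDC) held 222 and 33 counts (57.5 to 1010 against 33.0 to 119 CPM), with Siglech, Ly6d, Klk1 and Cox6a2 at 0 in the latter. Among these markers the cDC1 genes Xcr1, Irf8, Naaa and Tlr3 rose, the pDC regulator Tcf4 fell, and the remaining 4 tested cDC1 genes were not called. With 1 mouse left out, Tlr3 lost its call in 6 of 8 fits (all but those without PGE2-deficient mouse 2 or 3; 0.89 to 1.38), Irf8 in 4 (control 2 or 4, PGE2-deficient 1 or 4; 0.68 to 0.85) and Tcf4 in 3 (control 3 or 4, PGE2-deficient 4; −1.90 to −1.82). With the cDC2 marker level as covariate none of these 5 was called, and Tlr3 stood at 0.02. The 6 T cell markers held 11 and 56 counts (0 to 127 against 0 to 239 CPM), most of them from Cd3d and Trbc2. Between tumour groups, a lower level in a pool cannot be told apart from fewer cells that carry the transcript. Levels per mouse are in CPM of TMM-adjusted totals over the tested genes, and levels per pool in CPM of all counts of the pool.

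S100a4 and S100a6 were lower in cDC1 from PGE2-deficient tumours, and control mice 2 and 4 had the highest levels of both. S100a4 stood at 380, 964, 401 and 878 CPM in control mice 1 to 4 and at 107, 214, 337 and 363 CPM in PGE2-deficient mice 1 to 4. The groups did not overlap, but the lowest control mouse was only just above the highest mouse of the other group. The means were 656 ± 308 and 255 ± 118 CPM (SD, n = 4), a log2 difference of −1.33 ± 0.33 (SE, PGE2-deficient minus control). In raw counts this was 297 against 139, in 12 of 12 and 9 of 11 pools.

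S100a6 stood at 713, 1390, 893 and 1540 CPM in the control mice and at 322, 569, 740 and 768 CPM in the PGE2-deficient mice. Here the groups overlapped, as control mouse 1 lay below PGE2-deficient mice 3 and 4. The means were 1132 ± 392 and 600 ± 205 CPM, a log2 difference of −0.91 ± 0.26. Every pool of both groups held S100a6 counts (508 in control, 319 in PGE2-deficient pools).

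The other S100 pair differed little between the groups. S100a10, the annexin A2 partner, stood at 575, 430, 361 and 682 CPM in the control mice and at 341, 486, 587 and 454 CPM in the PGE2-deficient mice. These ranges overlap almost wholly, and the log2 difference was −0.12 ± 0.23. S100a11 stood at 1630, 1830, 1750 and 2240 CPM in the control mice and at 2100, 2030, 2420 and 2110 CPM in the PGE2-deficient mice. Control mouse 4 lay within the range of the other group, and the remaining control mice lay below it. The log2 difference was 0.22 ± 0.14 (1864 ± 265 against 2165 ± 176 CPM).

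**Figure D1:**
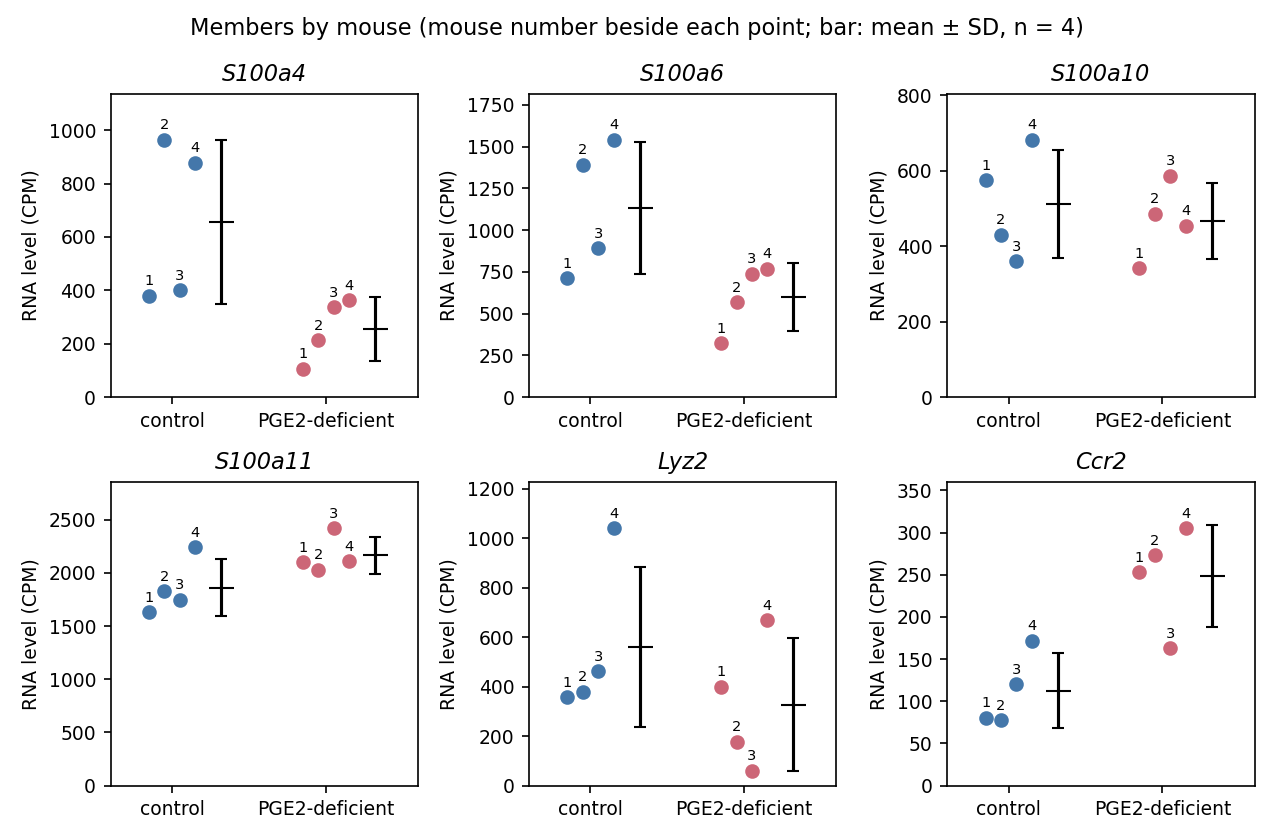
RNA level in CPM of each of the 6 genes (vertical axis, from 0) by tumour group, with 1 point per mouse, its number beside it, and the mean ± SD (n = 4). S100a4 lies at 380 CPM or more in control and at 363 or less in PGE2-deficient mice, and the groups overlap for the other 5 genes, for Ccr2 by 1 mouse on each side.

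Ratios within a mouse do not depend on scaling to the library total. Per 100 S100a11 counts, control mice 1 to 4 held 23.2, 52.6, 23 and 39.2 S100a4 counts, and PGE2-deficient mice 1 to 4 held 5.12, 10.5, 13.9 and 17.2. S100a6 gave 43.7, 75.6, 51.1 and 68.5 against 15.3, 28.1, 30.5 and 36.3. Neither ratio overlapped between the groups, so S100a4 and S100a6 were lower relative to S100a11 in every PGE2-deficient mouse than in any control mouse. S100a11 was itself somewhat higher in PGE2-deficient mice (log2 difference 0.22 ± 0.14), which lowers both ratios, and S100a6 in CPM overlapped. How often ratios of other genes overlap was not examined. As the genes were chosen on this contrast, nothing is read from the lack of overlap. For S100a10 the ratio was 27.5 ± 6.58 in control and 21.5 ± 3.68 in PGE2-deficient mice, with overlapping ranges (20.7 to 35.2 and 16.3 to 24.2). S100a4 per 100 S100a6 counts was 56.2 ± 10.3 against 40.9 ± 6.62, again with overlap (44.9 to 69.6 and 33.3 to 47.3).

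**Figure D2:**
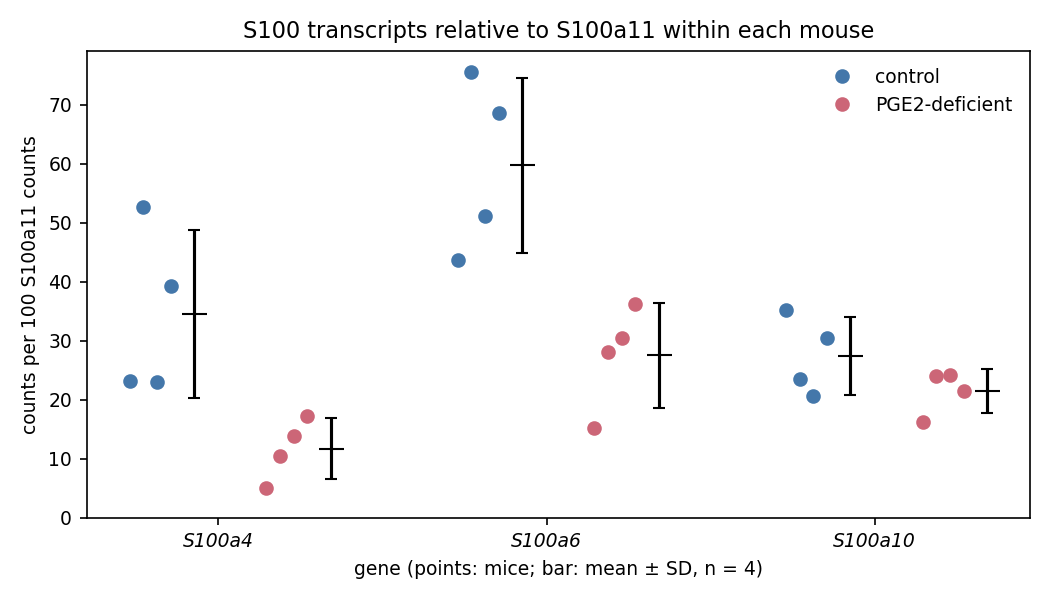
Counts of S100a4, S100a6 and S100a10 per 100 S100a11 counts (vertical axis, from 0) in each mouse of both groups, with mean ± SD (n = 4). For S100a4 the lowest control mouse is at 23 and the highest PGE2-deficient mouse at 17.2, whereas the S100a10 ratios of the groups overlap.

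The monocyte-associated pair did not move together. Lyz2 stood at 357, 379, 462 and 1040 CPM in the control mice and at 400, 178, 61.2 and 669 CPM in the PGE2-deficient mice. The groups overlapped, and control mouse 4 stood far above the other control mice. The means were 560 ± 325 and 327 ± 268 CPM, a log2 difference of −0.82 ± 0.47. Of the 133 Lyz2 counts of control mouse 4, 111 came from pool 1, at 1930 CPM, where the other pools of that mouse together held 226 CPM. That pool held 114 macrophage marker counts. Pool 2 of control mouse 2, which also held 114, had 381 CPM of Lyz2. Without these 2 pools the log2 difference was −0.12. The log2 difference of Lyz2 was −0.32 without control mouse 4, −0.43 without PGE2-deficient mouse 3 and −1.51 without PGE2-deficient mouse 4. Leaving out only pool 1 of control mouse 4 gave −0.19. The fits without 1 or both of these pools were chosen after seeing the data.

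Ccr2 went the other way. It stood at 80.5, 77.4, 120 and 172 CPM in the control mice and at 253, 273, 163 and 305 CPM in the PGE2-deficient mice. The groups overlapped by 1 mouse on each side, control mouse 4 and PGE2-deficient mouse 3. The means were 113 ± 44.4 and 249 ± 60.9 CPM, a log2 difference of 1.08 ± 0.32. In all, 50 counts in 10 of 12 control pools stood against 118 counts in 11 of 11 PGE2-deficient pools. A single control pool, pool 1 of mouse 4, held 20 of the 50. With all pools Ccr2 was not called (edgeR adjusted p = 0.0536). Without that pool alone, a setting chosen after seeing the data, the log2 difference was 1.65, and Ccr2 was then called higher. Nothing is read from that call, as the genes were chosen on this contrast and the pool was rich in Ccr2. From technical replicates 2 and 3 of all mice the log2 difference was 2.42.

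Across all 2076 tested genes, 103 (4.96%) were called at an adjusted p under 0.05 by edgeR's quasi-likelihood test, 47 (2.26%) lower and 56 (2.70%) higher with PGE2-deficient tumours. Of the 6 genes followed here, S100a4 and S100a6 were called lower, none was called higher, and the other 4 were not called. S100a4 was the only one whose groups did not overlap, which held for 221 tested genes (10.6%). As the genes were chosen on this contrast, nothing is read from these counts. The median log2 difference was −0.47 over the 6 and 0.01 over all tested genes, 49.3% of which had a negative difference. S100a4 was not called without control mouse 2 (−1.11) or 4 (−1.16) or PGE2-deficient mouse 1 (−1.10). S100a6 was not called without control mouse 2 (−0.81), 3 (−1.01) or 4 (−0.73) or PGE2-deficient mouse 1 (−0.72) or 2 (−0.88). With robust dispersion neither was called.

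**Figure D3:**
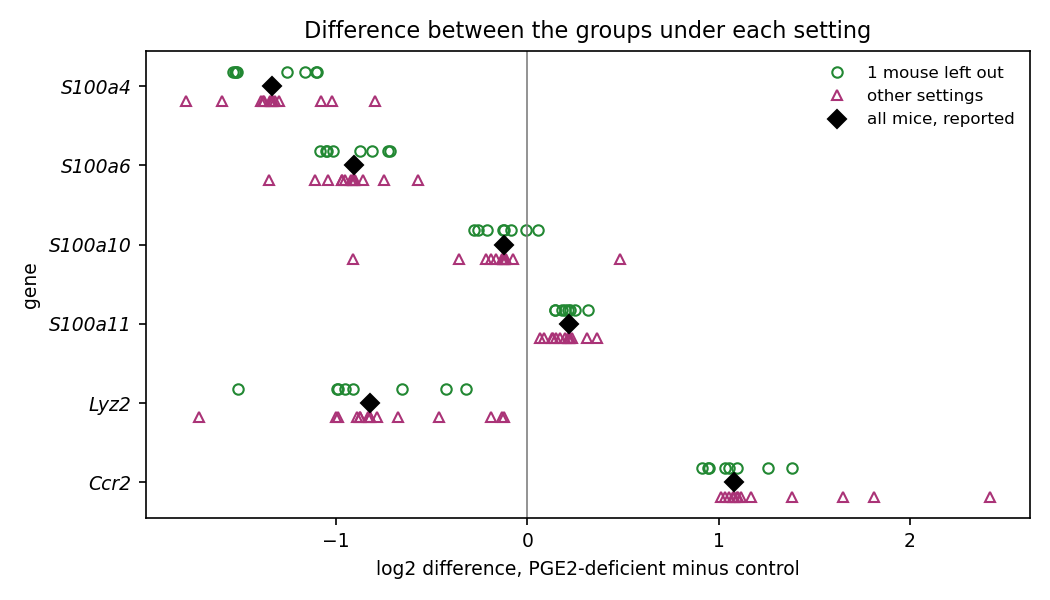
Log2 difference between the groups (horizontal axis, PGE2-deficient minus control) of each gene as reported (diamond), with each of the 8 mice left out (circles) and under the other settings tried (triangles). S100a4, S100a6 and Lyz2 are below 0 and Ccr2 and S100a11 above 0 throughout, while S100a10 falls on both sides.

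Pools of the same mouse were uneven in all 6 genes. The chi-squared statistic of a gene's counts between the pools of a mouse, per degree of freedom and relative to the pools' totals, was 13.2 for S100a6, 11.2 for Lyz2, 7.91 for S100a11, 7.28 for S100a4, 5.74 for Ccr2 and 4.71 for S100a10. Its median over all tested genes was 1.72, and 3 in 4 of them lay under 2.39. The statistic rises with a gene's count, so it describes these genes only. S100a4 ran from 54.1 to 1084 CPM in control pools (median 465) and from 0 to 548 in PGE2-deficient pools (median 208). Both PGE2-deficient pools without an S100a4 count, pool 2 of mouse 1 and pool 3 of mouse 4, came from mice whose other pools held some. S100a6 ran from 162 to 1998 CPM (median 809) and from 58.7 to 1034 (median 393). S100a11 was present at 821 CPM or more in every pool. Lyz2 had nearly the same median in both groups of pools, 258 and 255 CPM, and differed in its extremes, up to 1930 and down to 30.4 CPM. Ccr2 had a median of 30.4 CPM in control pools and 175 CPM in PGE2-deficient pools.

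Markers of cDC2 are Cd209a and Clec10a, both lectins, the related lectin Mgl2, and Sirpa, an inhibitory receptor for CD47. Their summed raw counts ran from 1 to 25 in control pools (median 10) and from 0 to 12 in PGE2-deficient pools (median 1). By gene, the control and PGE2-deficient groups held 49 and 5 Cd209a counts, 23 and 2 of Clec10a, 24 and 18 of Mgl2 and 40 and 9 of Sirpa. None of the 4 passed the count filter. At least 1 count was present in each control pool, and 3 PGE2-deficient pools had none.

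S100a4 and S100a6 were higher in pools with more cDC2 marker counts within both groups, and the others showed no common pattern. Over the 12 control pools Pearson's r between the marker count and log2(CPM + 10) was 0.61 for S100a4 (Spearman's rho 0.60) and 0.53 for S100a6 (rho 0.37). Over the 11 PGE2-deficient pools it was 0.40 for S100a4 (rho 0.42) and 0.48 for S100a6 (rho 0.60). Without the 2 pools farthest from the median count of each group, r of S100a4 was 0.46 and 0.13, and r of S100a6 0.49 and 0.45, so in PGE2-deficient pools the S100a4 relation rests on those pools. These are descriptions, since pools of a mouse share their animal and 4 mice a group are too few for a test. Both quantities also share the depth of the pool: with log2 of the total count, group means removed, r was 0.44 for the raw marker count, 0.51 for S100a4 and 0.36 for S100a6. The part of depth was not tested. With the marker sum itself as log2(CPM + 10), which scales it by the total count, r was 0.37 for S100a4 and 0.62 for S100a6.

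Over all 23 pools with group means removed, r with the raw marker count was 0.43 for S100a4, 0.49 for S100a6, 0.26 for S100a10, −0.17 for Lyz2, −0.04 for Ccr2 and −0.00 for S100a11. The median over all tested genes was 0.06, with 95% of them below 0.42. The median over the 6 genes was 0.13, and 3 of 6 were positive. Within mice, with the mean of each mouse removed, r stayed at 0.45 for S100a4 and 0.44 for S100a6. It was −0.04 for S100a10, −0.16 for Ccr2, −0.40 for Lyz2 and −0.42 for S100a11. With mouse means kept, S100a10 had 0.11 in control and 0.51 in PGE2-deficient pools, and the difference was not tested. The r of Lyz2 in control pools was 0.07 and became −0.65 without the 2 farthest pools, 1 of which is the pool at 1930 CPM. By single markers, S100a4 and S100a6 had r of 0.38 and 0.44 with Mgl2, 0.33 and 0.34 with Clec10a, 0.39 and 0.22 with Sirpa, and 0.06 and 0.24 with Cd209a. With the cDC1 marker level, as log2(CPM + 10), r was −0.35 for S100a4 and −0.40 for S100a6, against 0.38 for Lyz2 and 0.33 for Ccr2. Levels of T cell, pDC, macrophage and mature dendritic cell markers on that scale gave 0.37, 0.18, 0.12 and −0.15 for S100a4. The same lists gave 0.25, 0.40, 0.10 and 0.04 for S100a6 and −0.13, −0.14, 0.24 and 0.09 for Lyz2. For Ccr2 they gave −0.11, 0.17, 0.46 and −0.14, the highest of these with macrophage markers. All T cell marker counts came from pool 2 of control mouse 1 (11) and from 3 PGE2-deficient pools. These were pool 2 of mouse 2 (14), pool 3 of mouse 3 (13) and pool 2 of mouse 4 (29). In that order, these pools held 17, 12, 12 and 0 cDC2 marker counts, so the marker sets are not separate. Which of the marker sets S100a4 and S100a6 followed was not tested.

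**Figure D4:**
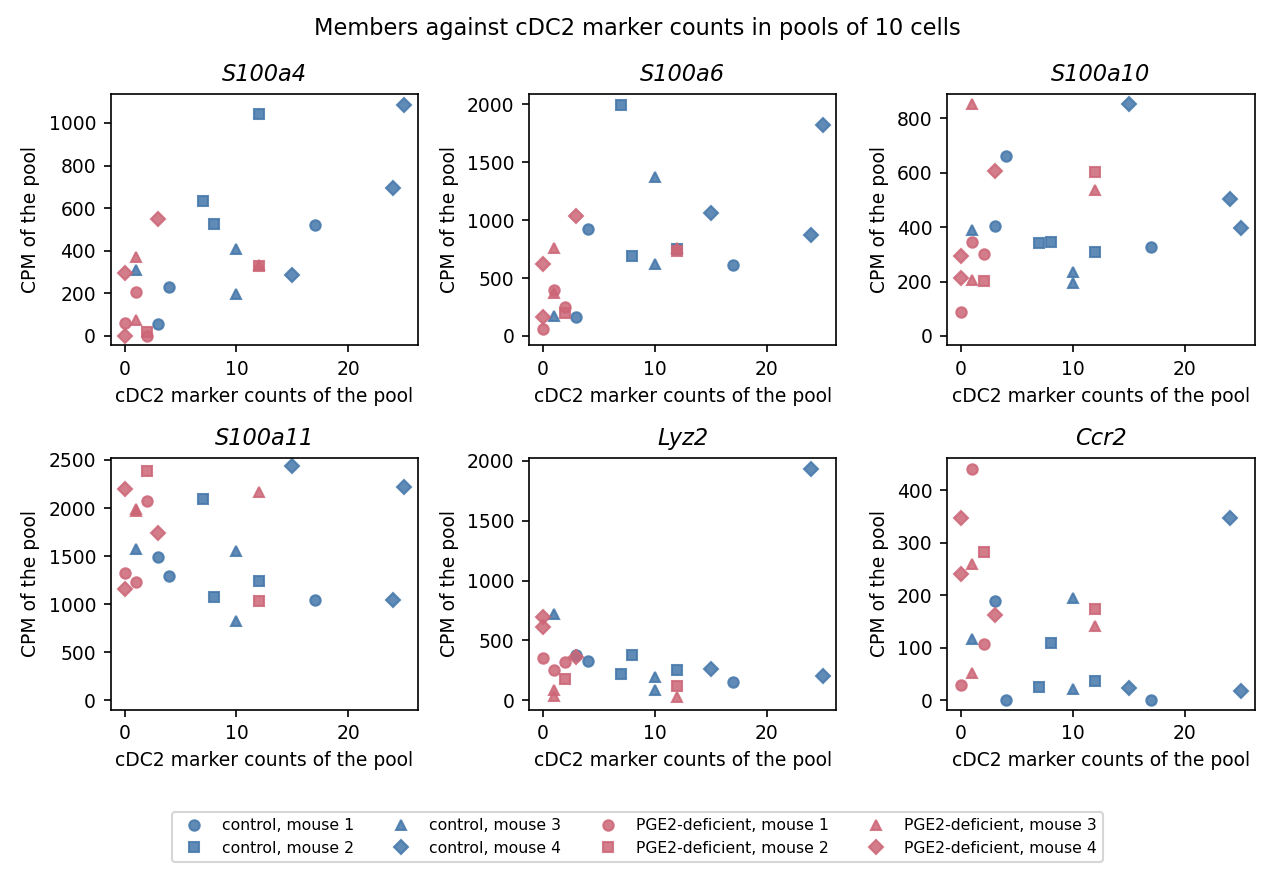
Level of each gene in CPM (vertical axis) against the summed raw counts of Cd209a, Clec10a, Mgl2 and Sirpa (horizontal axis) in each pool of 10 cells, with colour for the tumour group and a symbol for the mouse. S100a4 and S100a6 are lowest in pools with few marker counts, and Lyz2 has 1 pool at 1930 CPM.

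Setting pools side by side by their marker count gave the same order. The 5 control pools with under 10 marker counts, from 3 mice, had a median of 311 CPM of S100a4 (54.1 to 634) and 690 of S100a6 (162 to 1998). The 7 control pools with 10 or more had 522 (196 to 1084) and 869 (609 to 1825). The 9 PGE2-deficient pools with under 10 marker counts had 74.2 (0 to 548) and 372 (58.7 to 1034). The 2 with 10 or more had 330 and 335 CPM of S100a4 and 738 and 761 of S100a6. Within each group the ranges of the sets of pools overlap, and the last 2 pools lie inside the range of the other 9.

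The group difference of S100a4 and S100a6 was recomputed with fewer cDC2 marker counts or with their level as covariate. In these fits both were lower in direction without being called. From the 5 control and 9 PGE2-deficient pools with under 10 marker counts, the log2 differences were −1.02 for S100a4 and −0.75 for S100a6. These pools still held 1 to 8 marker counts in control and 0 to 3 in PGE2-deficient tumours, and none came from control mouse 4. With the marker level of the mouse as a covariate the log2 differences were −1.08 and −0.57, with 14 genes called higher and 7 lower over all genes. That level did not overlap between the groups (211 to 502 CPM in control, 24.8 to 166 in PGE2-deficient mice). Neither fit can therefore tell a group difference apart from the cDC2 marker level. Without the pools holding 10 or more macrophage, pDC and T cell marker counts together (5 control and 6 PGE2-deficient pools left) the log2 differences were −0.80 and −1.35, also without a call. A fit without any pool holding a cDC2 marker count could not be made, as no control pool was free of them. In control mouse 2 the pools with 0 and 1 macrophage marker counts held 634 and 1040 CPM of S100a4, and the pool with 114 held 527. In control mouse 4 the pools with 1 and 3 held 284 and 1084 CPM, and the pool with 114 lay between them at 695. Without the 2 pools at 114 macrophage counts, a setting chosen after seeing the data, the log2 differences of S100a4 and S100a6 were −1.38 and −1.04. Both were called lower there, but nothing is read from these calls, as the genes were chosen on this contrast.

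Among themselves, the genes varied together in only some pairs. S100a4 and S100a6, the chromosomal neighbours, had r = 0.63 over the 23 pools with group means removed (0.64 in control and 0.66 in PGE2-deficient pools). S100a6 and S100a10 had r = 0.56, which was 0.04 in control and 0.91 in PGE2-deficient pools, a difference that was not tested. Lyz2 and Ccr2 had r = 0.38, with 0.62 in control pools, where both were highest in the same pool, and 0.11 in the others. S100a11 and S100a10, also neighbours, had r = 0.24. Lyz2 was negatively related to all 4 S100 genes over the 23 pools (−0.17 to −0.40). With S100a10, however, its r was 0.42 in control and −0.50 in PGE2-deficient pools, a difference that was not tested. Over the 15 pairs the median was 0.05, where all pairs of tested genes had a median of 0.01 and 95% of them lay below 0.41. The points share library depth and animal, and no p is given.

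**Figure D5:**
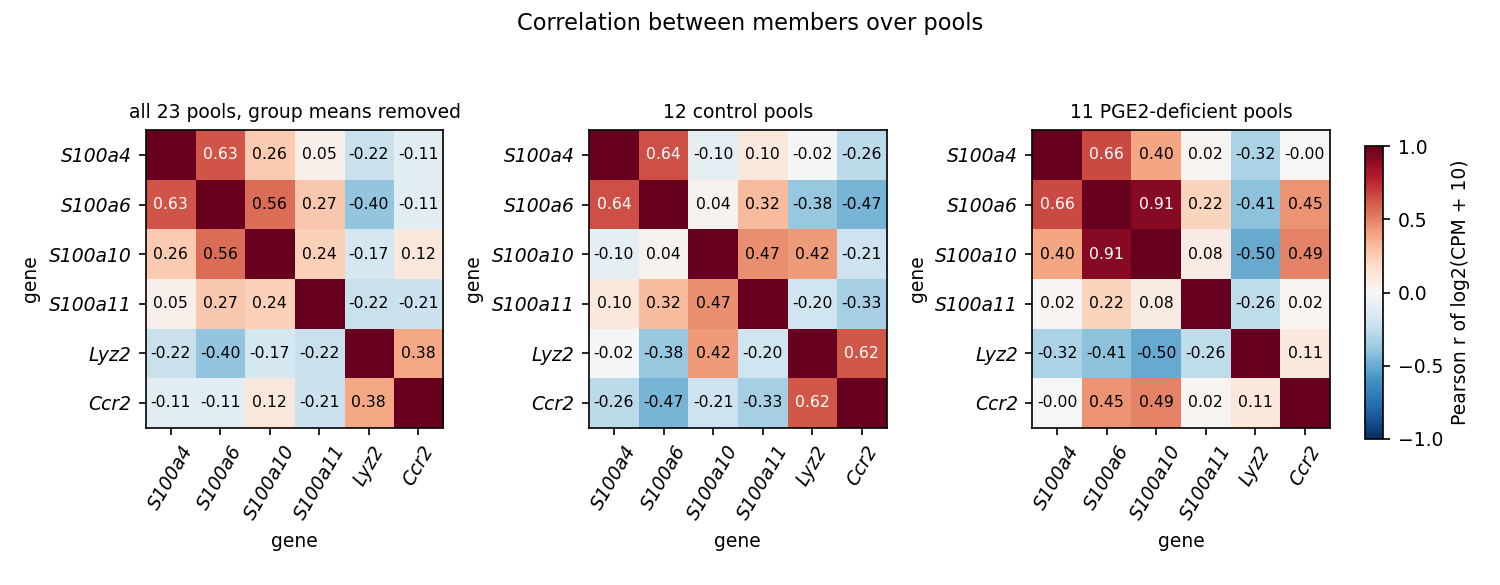
Pearson r of log2(CPM + 10) between each pair of genes (both axes) over all 23 pools with group means removed and within each tumour group, on a colour scale from −1 to 1. S100a4 with S100a6 is at 0.63 to 0.66 in all 3 panels, whereas S100a6 with S100a10 is at 0.04 in control and 0.91 in PGE2-deficient pools.

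The tested genes whose levels followed each member most closely over the 23 pools, group means removed, differed from member to member. For S100a4 they were Gpr183, the oxysterol receptor that positions dendritic cells (r = 0.72), the fatty acid-binding Fabp5 (0.66) and Grpel1 (0.64). For S100a6 they were Cfp, which encodes properdin of the complement system (0.72), the respiratory chain subunit Ndufs4 (0.68) and the cochaperone Dnaja2 (0.67). S100a10 was followed by Pa2g4, Srsf7 and Ccnl1 (0.63 to 0.66) and S100a11 by Uqcr10, Atox1 and Mrps18c (0.66 to 0.67). Lyz2 had the lowest maxima, with Pik3cb, Tmed10 and Ubn2 at 0.55 to 0.56, and Ccr2 was followed by Ywhag, Dnajb6 and H13 (0.69 to 0.71). None of these 18 genes was called between the tumour groups (adjusted p of 0.113 or more, edgeR).

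Other genes of the S100 family were sparse. S100a13, a member linked to release of fibroblast growth factor, was the only one tested: it stood at 195 ± 26 CPM in control and 190 ± 27.8 in PGE2-deficient mice (log2 difference −0.01, edgeR adjusted p = 0.978). S100a1 held 11 and 6 counts. The other 11 family members on the list, among them S100a8 and S100a9 of neutrophils, were not analysed here. Of 9 tested annexins and S100 partners 0 rose and 0 fell (edgeR; 1 of 9 had an unadjusted p under 0.05), with a median log2 difference of 0.33. Anxa2, the partner of S100a10, went from 586 ± 142 to 760 ± 288 CPM (0.33, adjusted p = 0.555). Ahnak, the large scaffold protein bound by the S100a10 complex, went from 799 ± 116 to 558 ± 111 CPM (−0.53, adjusted p = 0.132).

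Other monocyte genes did not follow Lyz2 or Ccr2 in 1 direction. Of 5 tested, 0 rose and 0 fell (edgeR; 1 of 5 had an unadjusted p under 0.05), with a median log2 difference of 0.09. Plac8 went from 946 ± 194 to 1220 ± 583 CPM (0.37, adjusted p = 0.482) and Ms4a6c from 153 ± 63.0 to 163 ± 39.0 CPM (0.09, adjusted p = 0.918). The 10 genes below the filter held 125 control and 50 PGE2-deficient counts, with fewer counts in the latter for 9 of 10, and the whole list, Plac8 among it, held 786 and 986. Among these 10, chosen after their values were seen, Csf1r, the receptor for macrophage colony-stimulating factor, held 34 control counts and 1 PGE2-deficient count, and the endotoxin co-receptor Cd14 held 17 and 1. The Fc receptor Fcgr1, with 8 and 11, was the exception, and Spn (8 and 7) and Fcgr4 (9 and 6) hardly differed. The share of all genes below the filter with fewer PGE2-deficient counts was not examined. Which pools these counts came from was not examined either, so a few control pools may hold most of them. The Ccr2 ligands Ccl2 and Ccl7, named likewise after their values were seen, held 9 and 4 control counts and 18 and 22 PGE2-deficient counts. Of the 2 tested chemokine receptors, the XCL1 receptor Xcr1 was called higher (2.16, edgeR adjusted p = 0.00242; 73.3 ± 46.5 and 318 ± 59.1 CPM), with all 4 mice of the PGE2-deficient group above all control mice. Ccr7, which guides dendritic cells towards lymph nodes, was not called (0.45, adjusted p = 0.489).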

How the data were processed

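RNA of sorted cDC1 pools was sequenced with Smart-seq3 (Nextera libraries, per the labels). The authors deposited whole-number counts per gene and library, not normalized. STAR 2.5.4b and GRCm38 are named in the submitters' processing notes. In the sources used here, counting program, strand setting and use of molecular identifiers are not given. Counting error alone ignores amplification. By identifier 13556 of 13572 rows were found in GENCODE M21.

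Pools of a mouse were summed (4 mice against 4). That the mice are separate animals is taken from the labels. Genes passing filterByExpr (minimum count 10) were tested with edgeR 4.0.16 (quasi-likelihood, TMM, two-sided, Benjamini-Hochberg over 2076 genes, threshold 0.05), with SE from the fold change and its F. In 5 simulations with 200 changed genes among these 2076, 60.5% of the 2-fold changes were found, 99.8% of the 4-fold changes, and 3.55% of calls were false. These rates describe the simulated counts only. Whether they hold for genes as uneven between pools as those followed here was not tested, and nothing is read from them for these genes. Pool correlations used log2(CPM + 10). Alternatives used DESeq2 1.42.0 and limma 3.58.1, in R 4.3.3 and Python 3.11.15.

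The members and gene lists were chosen with earlier results of these data known. Named were all members, the cDC2 markers, called genes and the 2 most abundant of each list, and the 3 coding genes most correlated with each member. Melanoma markers (Dct, Pmel) held 9 and 1 counts, mature dendritic cell markers 276 and 693 (Cacnb3 called higher, lost in 5 of 8 fits without 1 mouse; Fscn1 not called), other cDC2 genes 112 and 80 (Cd209d 8 and 24, Klf4 not called), and neutrophil markers were not analysed here. Protein sequences planned for the S100 members were not used here.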

Additional observations from a re-analysis of the deposited data

Results flagged for a closer look

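Lyz2 of control mouse 4 stood apart from its group: at 1040 CPM, its gap to the nearest control mouse (462 CPM) was 0.846 of the group's whole range, above Dixon's critical value for 4 samples. It was the only such sample among the 12 groups of 4 mice examined for the 6 genes. Chance flags about 1 group in 20, so nothing is read from 1 flag among 12 groups. The level came from pool 1, with 111 of the 133 counts.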

How the results depend on the processing

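Of the 6 genes, S100a4, S100a6, S100a11, Lyz2 and Ccr2 kept their direction in every fit that tested them (22 alternatives for Ccr2, 23 for the others). S100a10 reversed without control mouse 4 (0.056; −0.28 to 0.056 with 1 mouse left out) and with the cDC2 covariate (0.49). Ccr2 was called higher without control mouse 4 pool 1, without the 2 pools richest in macrophage markers, with robust dispersion, from technical replicates 2 and 3 alone, without mitochondrial and ribosomal RNA rows, and without control mouse 4 or PGE2-deficient mouse 3 (1 member called higher in each). Lyz2 was called lower only with no filter on low counts. The cause of these changes was not tested, and nothing is read from these calls, as the genes were chosen on this contrast.

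Over all genes, leaving out 1 mouse gave 31 to 67 genes called higher and 23 to 45 lower, with 0 to 2 members called lower and 0 to 1 higher. Ccr2 did not pass the filter without pools holding macrophage, pDC and T cell markers. No filter gave 110 higher and 84 lower. Limma-voom over pools gave 79 lower and 1 member called lower. Robust dispersion called 0 members lower and 1 higher. Technical replicates 2 and 3 alone gave 32 higher and 19 lower, with 1 member called higher. Without pools holding 10 or more cDC2 marker counts 10 genes were higher and 7 lower. Without those holding 10 or more macrophage, pDC and T cell counts 5 were higher and 6 lower, and with the cDC2 covariate 14 and 7. In these 3 settings 0 members were called lower, and 0 genes of the S100, partner, monocyte and chemokine receptor lists were called. The first 2 tested fewer genes from fewer pools.

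With the mouse number as replicate block 28 genes were called lower. Deviations of same-numbered mice correlated by −0.089 to 0.1 and 1 of 4 matched best its own number, so the numbers were not treated as pairs. The median r of the 6 genes with cDC2 marker counts was −0.036 to 0.18 with 1 mouse left out and 0.37 with raw member counts, which share depth with the marker sum.

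S100a13 reversed from technical replicates 2 and 3 alone (0.097) and without control mouse 3 (0.068) or PGE2-deficient mouse 2 (0.062), with a range of −0.085 to 0.068 over the mice left out. Ms4a6c reversed without control mouse 2 (−0.17; up to 0.35 with another mouse left out), and Klf4, a cDC2 gene, without control mouse 1 (−0.023) or 2 (−0.087) or PGE2-deficient mouse 1 (−0.093) or 3 (−0.010), with 0.27 as the highest value. None of these 3 was called. With raw member counts r of S100a11, Lyz2 and Ccr2 turned positive (0.29, 0.24 and 0.17). A fit without any pool holding a cDC2 marker count could not be made. The cDC2 marker sum rests on a median of 10 and 1 counts per pool, which limits the precision of each r.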
